A study of Macaca mulatta with 2 samples.

Results

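The lecticans are the chondroitin sulfate proteoglycans that bind hyaluronan, and their messenger RNA was described here in the macaque optic nerve together with that of 2 partners. The 6 genes were taken by symbol from the 16684 genes of the deposited table. They are *VCAN* (versican), *BCAN* (brevican), *NCAN* (neurocan) and *ACAN* (aggrecan), the link protein gene *HAPLN1*, and *TNR*, which encodes tenascin-R. Bulk RNA-seq was performed on total RNA of optic nerves from wild-type, untreated *Macaca mulatta*, with 2 libraries of this single condition, named Rep1 and Rep2. By the study's methods the donor was a 12-year-old male, but the deposited design text counts 2 animals, so the libraries came from 1 or 2 animals. The nerves were discarded tissue from eyes taken post mortem. Values are TPM, a transcript abundance unit, the share of a library's length-corrected reads that falls to a gene, scaled to the same total of 1000000 in each library.

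In the matrix of the central nervous system, a lectican holds hyaluronan with its N-terminal link domains and tenascin-R with its C-terminal lectin-like domain, and a link protein locks the lectican onto the hyaluronan chain. In grey matter this network forms perineuronal nets around neurons, where aggrecan is a defining component. In white matter such as the optic nerve it lies around axons and at the nodes of Ranvier, where versican, brevican, tenascin-R and the link protein encoded by *HAPLN2* are known components. Versican is also made by fibroblasts and vascular cells, and brevican and neurocan by astrocytes and cells of the oligodendrocyte lineage.

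The libraries stood apart before any of these genes was considered. Rep1 was the shallower. A single read of a gene carried 17.2 times as many TPM there as in Rep2. The smallest whole read numbers that give the deposited values summed to 651121 in Rep1 and 8858237 in Rep2. Such numbers were found for 99.9% of the 10168 genes above 0 in both libraries. The sums leave out the rest, among them the abundant *MBP*, and genes at 0 in a library. Of the genes in the table, 6425 were listed at 0 in Rep1 and 2082 in Rep2. Markers of oligodendrocytes, their precursors, astrocytes, microglia, endothelial cells and fibroblasts were present, headed by *MBP* of myelin at 43721 TPM in Rep1 against 199595 TPM in Rep2, with *VWF* and *CSPG4* listed at 0 in Rep1. Of these 32 markers, 26 were at least 2-fold lower in Rep1 on the log2(TPM + 1) scale, as were 51.3% of all genes above 0 in at least 1 library. In contrast, the 5 neuronal markers summed to 2285 TPM in Rep1 against 20.8 TPM in Rep2, and the 5 photoreceptor markers to 2882 and 2.66 TPM, with *CRX* listed at 0 in Rep2. Each value below is therefore given for both libraries.

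Because the lecticans and link proteins are paralogs, it was first asked whether their reads could be confused, using the RefSeq transcripts of Mmul_10, the build to which the reads were aligned. Among the 15 pairs of the 6 genes, the longest run of identical bases shared by the coding sequences ranged from 12 to 28 bases, with a median of 13. The longest run joined *VCAN* and *ACAN*, in the part that encodes the lectin-like domain. It is shown with 20 bases on either side, with the shared run in capitals, because it is the closest that any pair of the 6 genes came to each other, although their levels lay at opposite ends of the order. The *VCAN* stretch lies in a coding exon on the plus strand at chr6:80365240-80365307, and the *ACAN* stretch in a coding exon on the plus strand at chr7:67625917-67625984.
VCAN: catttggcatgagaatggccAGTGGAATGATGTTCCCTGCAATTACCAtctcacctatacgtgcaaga
ACAN: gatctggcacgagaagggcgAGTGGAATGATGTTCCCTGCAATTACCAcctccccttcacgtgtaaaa

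The corresponding stretches are shown for brevican, the other lectican detected in both libraries, and for *HAPLN1*, with the closest partner of each that lay within single exons. The run that *BCAN* shared with *ACAN* had 17 bases and that of *HAPLN1* with *HAPLN3* had 21, both in sequence that encodes a link domain. The *BCAN* stretch lies on the minus strand at chr1:94317398-94317454, and its first *ACAN* counterpart on the plus strand at chr7:67596228-67596284. The same 17 bases occur again in *ACAN* within chr7:67602391-67602446, which is not shown. The *HAPLN1* stretch lies on the minus strand at chr6:80433686-80433746, and the *HAPLN3* stretch on the minus strand at chr7:67631013-67631073.
BCAN: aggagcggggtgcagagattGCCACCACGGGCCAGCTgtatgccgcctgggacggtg
ACAN: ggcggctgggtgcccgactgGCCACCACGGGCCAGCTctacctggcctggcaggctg
HAPLN1: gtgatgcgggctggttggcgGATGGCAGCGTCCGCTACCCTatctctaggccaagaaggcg
HAPLN3: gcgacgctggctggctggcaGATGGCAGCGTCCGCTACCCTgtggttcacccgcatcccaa

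No stretch of 50 bases was shared between any of the 6 genes or with the other link protein genes. Against all other transcripts on either strand, *VCAN*, *ACAN* and *HAPLN1* shared none of their 50-base stretches. *BCAN* shared 0.374% of its 6154 stretches with other genes. *NCAN* shared 1.38% of 6399, all with 1 other gene model, LOC114675728. *TNR* shared 1.59% of 6019, all with long non-coding RNA genes on its opposite strand. The use of strand and of reads with several alignments in counting is not given in the sources used here. It is therefore not known how far reads of these other genes entered the levels of *NCAN* and *TNR*. The percentages count stretches of sequence, not reads, and *TNR* rested on at least 5 reads in Rep1 and 19 in Rep2. *VCAN* overlaps a pseudogene model and *NCAN* a small nuclear RNA gene model on the same strand, and *HAPLN1* overlaps 2 pseudogene models. *TNR* overlaps long non-coding RNA gene models on its opposite strand.

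*VCAN* was the most abundant lectican transcript in the optic nerve in both libraries. The gene lies on chromosome 6 from 80264135 to 80375099 on the plus strand. Its level was 29.7 TPM in Rep1 against 178 TPM in Rep2, a mean of 104 ± 105 TPM (SD, n = 2 libraries). These values rested on at least 91 and 9395 reads. The level in Rep2 was thus 6.01 times that in Rep1, and the spread was as wide as the mean. In rank the libraries were closer, as *VCAN* stood at percentile 79.4 of the genes in Rep1 and 94.9 in Rep2, among the 14693 genes above 0 in at least 1 library. The table gives 1 value per gene, so the splice forms of versican, which differ in their chondroitin sulfate attachment regions, could not be separated.

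*BCAN*, which encodes the smallest of the lectican core proteins, came next. It lies on chromosome 1 from 94306554 to 94324515 on the minus strand. The level was 6.20 TPM in Rep1 against 26.5 TPM in Rep2, a mean of 16.3 ± 14.3 TPM (SD, n = 2), on at least 8 and 587 reads. Again Rep2 was the higher library, by 4.27 times, and the percentiles were 57.9 in Rep1 and 66.6 in Rep2. *VCAN* exceeded *BCAN* by 4.78 times in Rep1 and by 6.73 times in Rep2, ratios that do not depend on how a library is scaled.

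*NCAN*, a lectican of the developing and injured nervous system, was found in 1 library only. On chromosome 19 from 18806211 to 18847358 on the plus strand, it was listed at 0 in Rep1 and reached 4.72 TPM in Rep2. *ACAN*, the lectican of cartilage and of perineuronal nets, lies on chromosome 7 from 67588642 to 67628335 on the plus strand. It was listed at 0 in Rep1 and at 0.187 TPM in Rep2, where it ranked at percentile 6.71. Of the 200 genes nearest to *NCAN* in Rep2 level, 42.0% were also listed at 0 in Rep1, and of those nearest to *ACAN*, 78.5%. A value of 0 there thus does not show that the transcript was missing.

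**Figure D1:**
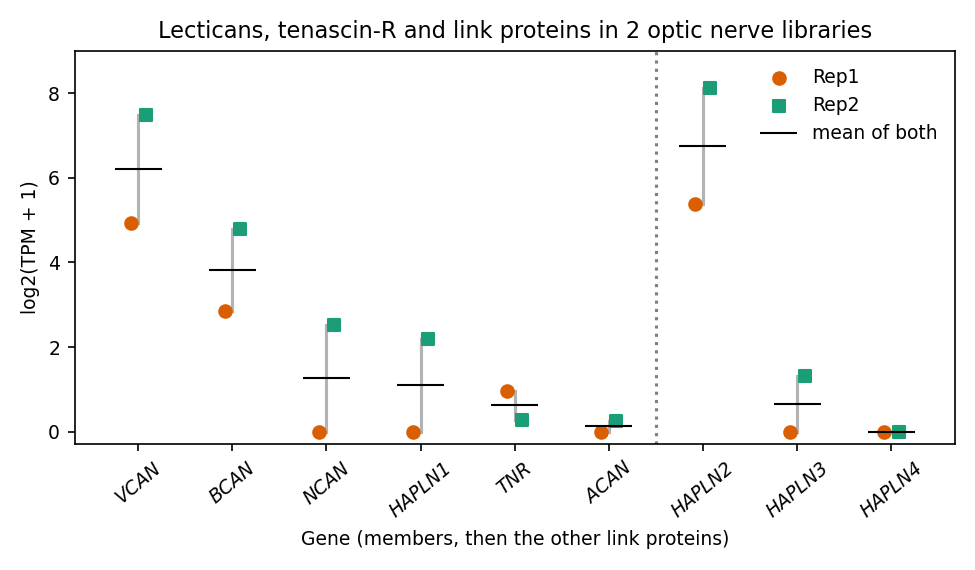
Level of each gene on the log2(TPM + 1) scale in Rep1 (circles) and Rep2 (squares), with the mean of both as a horizontal line. The 6 genes stand left of the dotted line in order of mean TPM, with the other link protein genes to its right. *VCAN* and *BCAN* lie above 0 in both libraries, *TNR* is the only gene with Rep1 above Rep2, and *HAPLN2* reaches 278 TPM in Rep2.

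As shares of the summed lectican TPM, the libraries were more alike than their levels. *VCAN* made up 82.7% of lectican TPM in Rep1 and 85.0% in Rep2 (83.9% ± 1.64, SD, n = 2). *BCAN* made up 17.3% and 12.6% (15.0% ± 3.29, SD, n = 2). In Rep2 the remainder was 2.25% *NCAN* and 0.0892% *ACAN*. The lecticans together held 35.9 TPM in Rep1 against 210 TPM in Rep2.

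The link protein gene *HAPLN1* lies on chromosome 6 from 80429407 to 80514257 on the minus strand. Its protein is the cartilage link protein, which is also part of perineuronal nets. It was listed at 0 in Rep1 and reached 3.60 TPM in Rep2, at percentile 31.4 of that library. Of the 200 genes nearest to it in Rep2 level, 42.0% were also at 0 in Rep1. Among the 4 link protein genes it was a minor one. *HAPLN2*, whose product is the link protein of nodes of Ranvier, stood at 40.3 TPM in Rep1 against 278 TPM in Rep2, on at least 2 and 237 reads. It took 98.2% of link protein TPM in Rep2, against 1.27% for *HAPLN1*, and in Rep1 it was the only link protein gene above 0. *HAPLN3* was listed at 0 in Rep1 and at 1.49 TPM in Rep2, and *HAPLN4* at 0 in both.

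Each lectican gene has a link protein gene beside it in the genome, and in all 4 pairs no other protein-coding gene lies between them in the annotation. The levels within a pair were not alike. *VCAN*, at 178 TPM in Rep2, lies 54.3 kb from *HAPLN1*, at 3.60 TPM. *BCAN*, at 26.5 TPM, lies 17.4 kb from *HAPLN2*, at 278 TPM, so the more abundant partner was the lectican in the first pair and the link protein in the second. *ACAN*, at 0.187 TPM, lies 1.89 kb from *HAPLN3*, at 1.49 TPM. *NCAN*, at 4.72 TPM, lies 3.70 kb from *HAPLN4*, which was listed at 0. In Rep1 the order within the first pair was the same as in Rep2, with 29.7 TPM for *VCAN* and 0 listed for *HAPLN1*. It was also the same in the second pair, with 6.20 TPM for *BCAN* and 40.3 TPM for *HAPLN2*, whereas the other 2 pairs were at 0 throughout.

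*TNR* encodes tenascin-R, a trimeric glycoprotein made by oligodendrocytes and some neurons that cross-links lecticans. It lies on chromosome 1 from 32572698 to 33119946 on the minus strand. It was at 0.951 TPM in Rep1 against 0.210 TPM in Rep2, a mean of 0.581 ± 0.524 TPM (SD, n = 2), on at least 5 and 19 reads. *TNR* was the only one of the 6 genes that was higher in Rep1, by 4.52 times as a ratio of TPM and by 0.69 on the log2(TPM + 1) scale, where the added 1 shrinks differences at low levels. Its percentile was 35.6 in Rep1 and 7.21 in Rep2. In Rep1, however, 30.2% of all genes were listed at 0 and shared percentile 15.1. Any gene above 0 in Rep1 ranked above all of them, so these percentiles of *TNR* do not by themselves show a higher rank in Rep1. Of the genes nearest to *TNR* in Rep2 level, 81% were listed at 0 in Rep1. Of the 5 neuronal markers, 4 were at least 2-fold higher in Rep1, with *SNAP25* of synaptic terminals at 1122 TPM in Rep1 against 4.99 TPM in Rep2. The other, *RBFOX3*, was at 1.64 and 1.87 TPM. Of the 5 photoreceptor markers, 4 were also at least 2-fold higher in Rep1, whereas all 6 oligodendrocyte markers were at least 2-fold lower. The part of these markers in the level of *TNR* was not tested.

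Of the other tenascins, *TNXB*, the tenascin of connective tissue, was at 1.11 TPM in Rep1 against 61.2 TPM in Rep2. *TNC*, the tenascin of developing and reactive glia, was listed at 0 in Rep1 and at 1.48 TPM in Rep2. *TNR* thus made up 31.2% of the summed tenascin TPM in Rep1 and 0.333% in Rep2. *TNN*, which lies 163 kb from *TNR* on chromosome 1 and was singled out after its values were seen, was at 0.986 and 0.230 TPM, both close to *TNR*, on at least 1 and 4 reads.

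**Figure D2:**
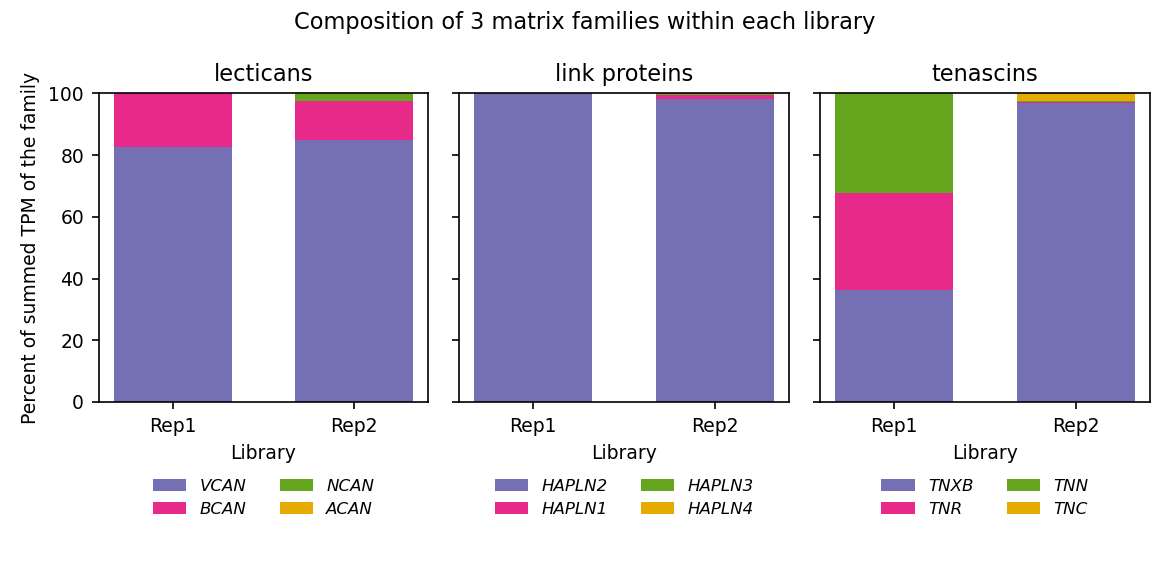
Percent of the summed TPM of each family within Rep1 and Rep2 for the lecticans, the link proteins and the tenascins, as stacked bars from 0 to 100. *VCAN* takes 82.7% and 85.0% of the lecticans, *HAPLN2* almost all of the link proteins, and *TNR* 31.2% of the tenascins in Rep1 but 0.333% in Rep2.

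Set in order by mean TPM, the genes ran *VCAN*, *BCAN*, *NCAN*, *HAPLN1*, *TNR*, *ACAN*. In Rep2 all 15 pairs of genes stood in this order. In Rep1, 10 did, 3 pairs were tied at 0 and 2 were turned, as *TNR* was above *NCAN* and *HAPLN1*. The gaps were compared with the SD of a single library, which was taken from how far Rep1 and Rep2 lay apart in the 200 genes closest to each gene in mean level. *VCAN* exceeded *BCAN* by 2.40 on the log2(TPM + 1) scale, or 1.45 SDs, and *BCAN* exceeded *NCAN* by 2.56, or 1.58 SDs. The gaps between the neighbours below them were under 1 SD. *NCAN* and *HAPLN1* were 0.11 SDs apart, *HAPLN1* and *TNR* 0.430 SDs, and *TNR* and *ACAN* 0.844 SDs. When the average shift of the closest genes was first removed from the SD, the last pair was 1.45 SDs apart. With the SD taken about 0, as for the other gaps, that of *TNR* over *ACAN* was 1.64 SDs in Rep1 alone against 0.048 in Rep2 alone. Of all 15 pairs, 11 were at least 1 SD apart. Those 11 include *NCAN* over *ACAN* (1.06 SDs) and *HAPLN1* over *ACAN* (1.01 SDs). Both pairs were tied at 0 in Rep1, so their gaps came from Rep2 alone. These gaps describe 2 libraries, for which an exact two-sided sign test cannot give a p below 0.5.

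Between the libraries, 4 of the 6 genes were at least 2-fold lower in Rep1 on the log2(TPM + 1) scale, and none was at least 2-fold higher. Those 4 include *NCAN* and *HAPLN1*, which were listed at 0 in Rep1, where 0 does not show absence. With differences of any size counted, 5 of the 6 were lower in Rep1, against 75.9% of all genes. Across all 14693 genes, 51.3% were at least 2-fold lower in Rep1 and 14.8% at least 2-fold higher. The difference (Rep1 minus Rep2) was -2.55 for *VCAN* and -1.93 for *BCAN*. The median over the 6 genes was -2.07, beside -1.07 over all genes. That median includes the 3 genes listed at 0 in Rep1, for which no fold is given. Scaling by the median of ratios takes out a log2 shift of -1.19 between the libraries. *VCAN* then stood at -1.38, *BCAN* at -0.84 and *TNR* at 1.10, with no change of direction in any of the 6 genes. Under that scaling 3 of the 6 were at least 2-fold lower and 1, *TNR*, at least 2-fold higher in Rep1, beside 33.8% and 23.7% of all genes. The 3 lower genes were *VCAN*, *NCAN* and *HAPLN1*. Of the 6 genes, 3 were listed at 0 in Rep1 only, against 30.2% of all genes. In bulk tissue, fewer cells of a type and less RNA per cell cannot be told apart. The libraries also differed in depth and in neuronal and photoreceptor markers, and the part of these in the differences was not tested.

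**Figure D3:**
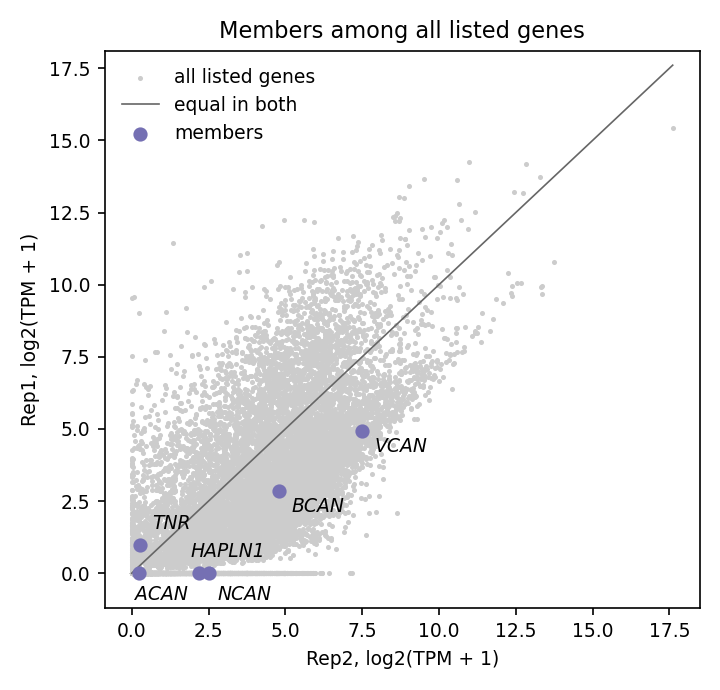
Level in Rep1 (vertical) against Rep2 (horizontal) on the log2(TPM + 1) scale for all listed genes in grey, with the 6 genes labelled and the line of equal levels. *VCAN* and *BCAN* lie below the line, *NCAN*, *HAPLN1* and *ACAN* lie on the floor of Rep1, and *TNR* lies above the line.

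The genes closest to each in level over the 2 libraries were found by distance on the log2(TPM + 1) scale. For *VCAN* they were *MYL9*, at a distance of 0.032, and *C1QB*, at 0.053. For *BCAN* they were *TGFB2* (0.028) and *ADAMTSL5* (0.034), and for *TNR* they were *F2* (0.016) and *XKR4* (0.026). A likeness over 2 libraries is shared by many genes of a given level.

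The other genes of this matrix were described from lists of their known roles. Of 56 genes, 54 were in the table and 51 were above 0 in at least 1 library. Of these, 25 were at least 2-fold lower in Rep1, 5 at least 2-fold higher and 21 in between, where all genes had 51.3% lower and 14.8% higher. Under the median of ratios the counts became 16 lower and 11 higher, beside 33.8% and 23.7% of all genes. Their median difference was -0.99, close to the -1.07 of all genes. Of the 51 genes, 13 were listed at 0 in Rep1 only, against 30.2% of all genes.

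Hyaluronan, the chain on which the lecticans are held, is made by 3 synthases at the cell surface. *HAS1* was at 0.473 TPM in Rep1 against 12.2 TPM in Rep2, and *HAS3* at 3.40 and 0.939 TPM, so a different synthase led in each library. The Rep1 values rested on at least 1 read of *HAS1* and at least 4 of *HAS3*. Among the hyaluronan receptors, *CD44*, the receptor of astrocytes and leukocytes, was at 4.09 TPM in Rep1 against 124 TPM in Rep2. *LYVE1*, known from lymphatic endothelium and perivascular macrophages, was at 5.01 and 47.4 TPM. Of the 4 hyaluronidase genes listed, *HYAL2* was at 4.37 and 15.2 TPM and *HYAL3* at 4.12 and 14.5 TPM, while *SPAM1* of sperm was listed at 0 in both. *CEMIP* and *CEMIP2* were not analysed here.

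Among the proteases that cut lecticans, *ADAMTS1* was the highest, at 13.5 TPM in Rep1 against 83.6 TPM in Rep2. *ADAMTS4*, an aggrecanase that also cuts brevican and versican, was listed at 0 in Rep1 and at 9.0 TPM in Rep2. *ADAMTS20* was at 0 in both libraries. Of the 6 detected proteases, 4 were at least 2-fold lower in Rep1 and none as much higher, beside 51.3% and 14.8% of all genes. Of those 4, 3 were listed at 0 in Rep1, where 0 does not show absence, and only *ADAMTS1* was above 0 in both libraries.

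The enzymes that build the chondroitin sulfate chains were detected in every step. For the start of the chain and its linker, the highest were *XYLT2*, at 26.7 TPM in Rep1 against 6.93 TPM in Rep2, and *B3GAT3*, at 2.23 and 29.9 TPM, which thus moved in opposite directions. For chain growth, *CHPF* was at 6.26 and 80.7 TPM and *CHSY1* at 2.86 and 36.5 TPM. Of the 10 sulfotransferases and epimerases, 2 were at least 2-fold lower in Rep1 and none as much higher, beside the same 51.3% and 14.8%. *UST*, which sulfates uronic acid, was at 23.8 TPM in Rep1 against 24.3 TPM in Rep2, and *CHST12* was at 18.3 and 27.6 TPM. On the log2(TPM + 1) scale the difference of *UST* (Rep1 minus Rep2) was -0.03 as deposited and 1.12 under the median of ratios, and that of *CHST12* turned from -0.57 to 0.57.

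Of the other chondroitin sulfate proteoglycans of neural cells, *PTPRZ1*, a receptor phosphatase of astrocytes and precursors, was at 21.7 TPM in Rep1 against 103 TPM in Rep2. Its mean of 62.5 ± 57.7 TPM (SD, n = 2) lay between those of *VCAN* and *BCAN*. *CSPG5* was at 3.52 and 2.42 TPM. Among receptors for chondroitin sulfate and tenascin-R, *CNTN1*, the axonal and glial binding partner of tenascin-R, was at 8.80 and 8.88 TPM, and *PTPRF* at 9.25 and 7.13 TPM. The 5 matrix genes at least 2-fold higher in Rep1 were *HAS3*, *XYLT2*, *CSGALNACT2*, *CHPF2* and *RTN4RL1*, the last at 15.5 TPM in Rep1 against 0.698 TPM in Rep2. They are named after their values were seen.

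**Figure D4:**
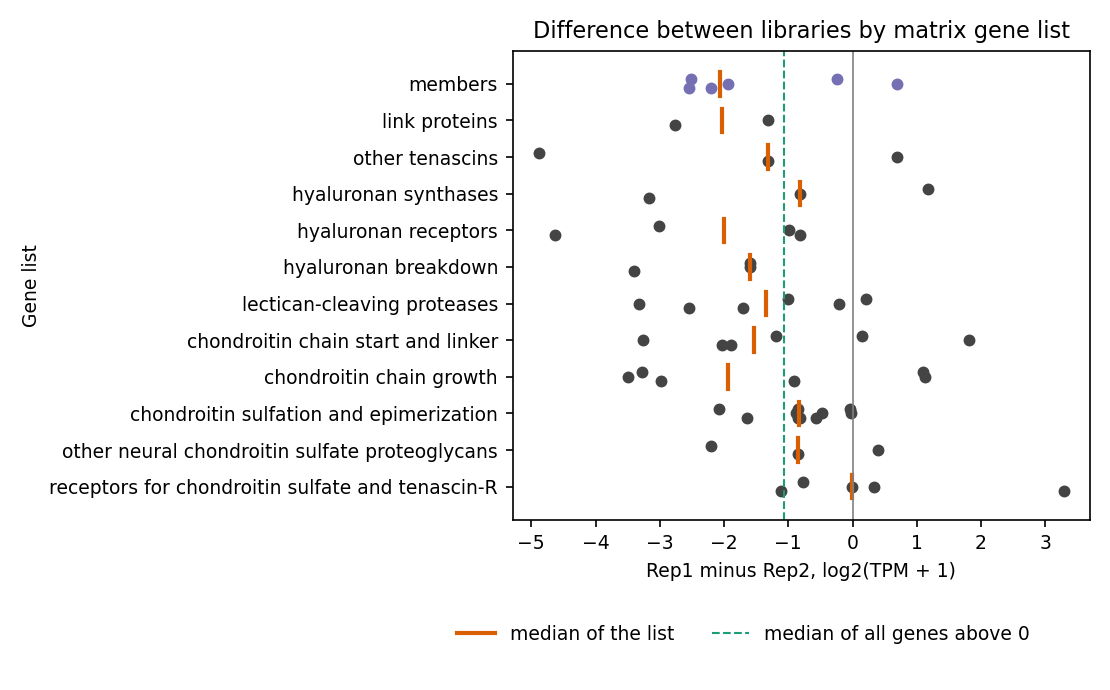
Difference between the libraries (Rep1 minus Rep2, log2(TPM + 1)) for each gene above 0 in at least 1 library, by list, with the median of the list as an orange bar and the median of all genes, -1.07, as a dashed line. The 6 genes in the top row have a median of -2.07, and the sulfation genes lie between -2.08 and -0.03.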

How the data were processed

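Total RNA was sequenced from untreated macaque optic nerve, in 2 libraries of 1 condition. The authors used a SMARTer v4 kit for very small RNA inputs, in which the cDNA is amplified. Per the labels and methods, reads were checked with FastQC 0.11.9, trimmed with Trim Galore 0.6.6, aligned to Mmul_10 with STAR 2.7.1a and counted with featureCounts 1.5.3. The authors deposited the values as TPM. Gene lengths, strand and handling of multiple alignments are not given in the sources used here, and TPM depends on those lengths and on every other gene of the library. The columns Rep1 and Rep2 match no sample title and were used as replicates without a number of their own. The sources differ on whether the libraries came from separate animals, so their spread cannot be read as the spread between animals. The libraries also differed in depth and in neuronal and photoreceptor markers, and the part of these in the spread was not tested.

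Genes were located in the RefSeq annotation of Mmul_10, which held all 16684 symbols. Levels were taken as deposited, and differences on log2(TPM + 1). The SD of a single library was taken about 0 from the 200 genes nearest in mean level. Read numbers are the smallest whole numbers whose ratio, with 1 constant for the table, gives the ratio of a gene's TPM within 1e-12, so they are lower bounds. No confidence interval can be given. No test of groups was possible. The members and lists were chosen with earlier results of these data known. Text names the 6 genes, the 2 highest of each list, link protein genes beside lecticans, genes listed at 0 in both libraries, the 2 nearest genes in level and the leading markers. Scaling, pseudocount, gene sets, nearest genes, averaging and each library alone were varied. Python 3.11, numpy 2.4.6, pandas 2.3.3 and matplotlib 3.10.9 were used. The read numbers, the scaling shift and the SD with the average shift removed were tested on simulated libraries of 16684 genes. The SD about 0, used for the main gaps, was not tested in this way.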

Additional observations from a re-analysis of the deposited data

How the results depend on the processing

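No paired analysis was possible because there is only 1 condition. Under scaling by the median of ratios, without the 10 most abundant genes and with the geometric mean, the mean levels moved by less than their SD, but with 2 libraries that SD is about as wide as the mean and would cover nearly any change. The mean of *NCAN* was 2.36 TPM as deposited, 1.56 TPM after scaling and 1.39 TPM as a geometric mean. *VCAN* over *BCAN* and *BCAN* over *NCAN* were more than 1 SD apart under every alternative run for these gaps. The gap of *TNR* over *ACAN* went from 0.844 to 1.45 SDs and that of *HAPLN1* over *TNR* from 0.430 to 0.654 SDs when the average shift between the libraries was first removed from the SD. The lectican shares were recomputed only for each library alone, since a share does not depend on scaling. The gap of *HAPLN1* over *TNR* ran from -0.863 SDs in Rep1 to 1.72 SDs in Rep2, so the order of that pair rests on the library. Each of 2 libraries always lies equally far from their mean, so the single libraries say nothing about the stability of a mean or a share. The count of the 6 genes at least 2-fold higher in Rep1 went from 0 to 1 both under the median of ratios and with a pseudocount of 0.1, and this gene was *TNR*. Under the median of ratios, the related matrix genes at least 2-fold lower in Rep1 went from 25 to 16 and those higher from 5 to 11, and over all genes the shares went from 51.3% to 33.8% and from 14.8% to 23.7%, since that scaling raises Rep1 against Rep2. The depth of Rep1 limits *NCAN*, *HAPLN1* and *ACAN*, for which 0 does not show absence.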
